A study of Mus musculus with 6 samples.

Results

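The enzymes that build prostanoids and the receptors that sense them were examined in mouse MLL-AF9 leukemia cells of Alox5-/- and WT genotype. They were 10 genes, chosen by name: the cyclooxygenases Ptgs1 and Ptgs2, the terminal synthases Ptges, Ptges2, Ptges3, Tbxas1 and Hpgds, and the receptors Ptger2, Ptger4 and Ptgir. The deposited table counted poly-A reads for 46983 genes, and all 10 were found in it under these symbols. A set of 3 libraries of C57BL/6J Alox5-/- genotype was compared with 3 libraries of C57BL/6J WT genotype. In all 6, a retrovirus had delivered MLL-AF9, a leukemia-causing gene fusion, into sorted Lin-Sca-1+c-Kit+ cells of the bone marrow, and all 6 were untreated. Per the design text, GFP+ transduced cells were transplanted into irradiated C57BL/6J mice to make the leukemia, and, per the labels, the samples were sorted by flow cytometry and amplified with a SMARTer kit. The labels number the libraries of a genotype as biological replicates, but name no animal, age or altered part of the Alox5 allele for any of them. Whether each came from a separate mouse is thus unknown, and the tests weigh the spread among these libraries.

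Prostanoids are made from arachidonic acid, the fatty acid that 5-lipoxygenase, the product of Alox5, turns into leukotrienes. Phospholipases free it from membranes, a cyclooxygenase converts it to prostaglandin H2, and terminal synthases then form prostaglandin E2, prostaglandin D2, thromboxane or prostacyclin. These act on G protein-coupled receptors close to the cell that made them and are soon broken down. In blood-forming tissue, prostaglandin E2 is known to act on stem and progenitor cells, platelets and macrophages make thromboxane, and mast cells make prostaglandin D2.

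Libraries held 28985597 to 38695948 reads counted to genes, so that 3 counts, the level that a count of 0 allows, stood at 0.0786 to 0.103 CPM (counts per 1000000 reads, with library sizes scaled by TMM). Alox5 itself, the check of the labels, was at 65.6, 62.1 and 64.9 CPM in Alox5-/- libraries, against 102, 106 and 106 CPM in WT libraries, so that its transcript was lower but still counted. Of 15 genes that mark MLL-AF9 leukemia and myeloid progenitors all were tested, of which 5 rose and 6 fell. By the same test, given below, 53.8% of all tested genes were called in either direction. Hoxa9 was at 307 ± 16.1 CPM in Alox5-/- cells against 244 ± 7.89 CPM in WT cells, and Meis1 at 147 ± 1.69 CPM in Alox5-/- cells against 149 ± 5.35 CPM in WT cells (mean ± SD of 3 libraries, here and below). Log2 changes were -0.39 for Hoxa7 and -0.33 for Hoxa10, both called lower, and Eya1 was 5.56-fold lower, at 1.51 ± 0.251 CPM in Alox5-/- cells against 8.42 ± 0.243 CPM in WT cells. Of the genes behind the sort of the starting cells, Kit was at 136 ± 2.73 CPM in Alox5-/- cells against 159.7 ± 3.09 CPM in WT cells, while Ly6a, which encodes Sca-1, was low, at 0.763 ± 0.158 CPM in Alox5-/- cells against 1.06 ± 0.169 CPM in WT cells. Fewer cells of a type and less RNA per cell cannot be told apart in such bulk samples.

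Of the 10 genes, 6 rose in Alox5-/- cells (Ptgs1, Ptgs2, Ptges2, Hpgds, Ptger2 and Ptgir), Tbxas1 fell, and Ptges, Ptges3 and Ptger4 did not pass the test, which was edgeR's quasi-likelihood test with an adjusted p under 0.05. Calls were common in this comparison: 53.8% of the 13705 genes tested were called, 26.8% higher and 27% lower. The 7 called genes were also those whose libraries did not overlap between genotypes, a pattern shown by 60% of all tested genes. The median log2 fold change of the 10 was 0.28, beside 9.97e-05 over all tested genes. Called changes of at least 2-fold numbered 2 higher and 0 lower, namely Ptgs2, the inducible cyclooxygenase, and Ptger2, a prostaglandin E2 receptor, while 2.73% of all tested genes were called higher and 1.84% lower at that size. All 10 passed the filter on low counts, but Ptger2 did so through its Alox5-/- libraries alone, since no WT library reached the 0.33 CPM, before TMM scaling, that the filter asks of 3 libraries. Ptger2 was thus tested because it was high in Alox5-/- cells, and its call is given as a description. Without any filter, 6 of the 10 were again called higher and 1 lower.

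**Figure D1:**
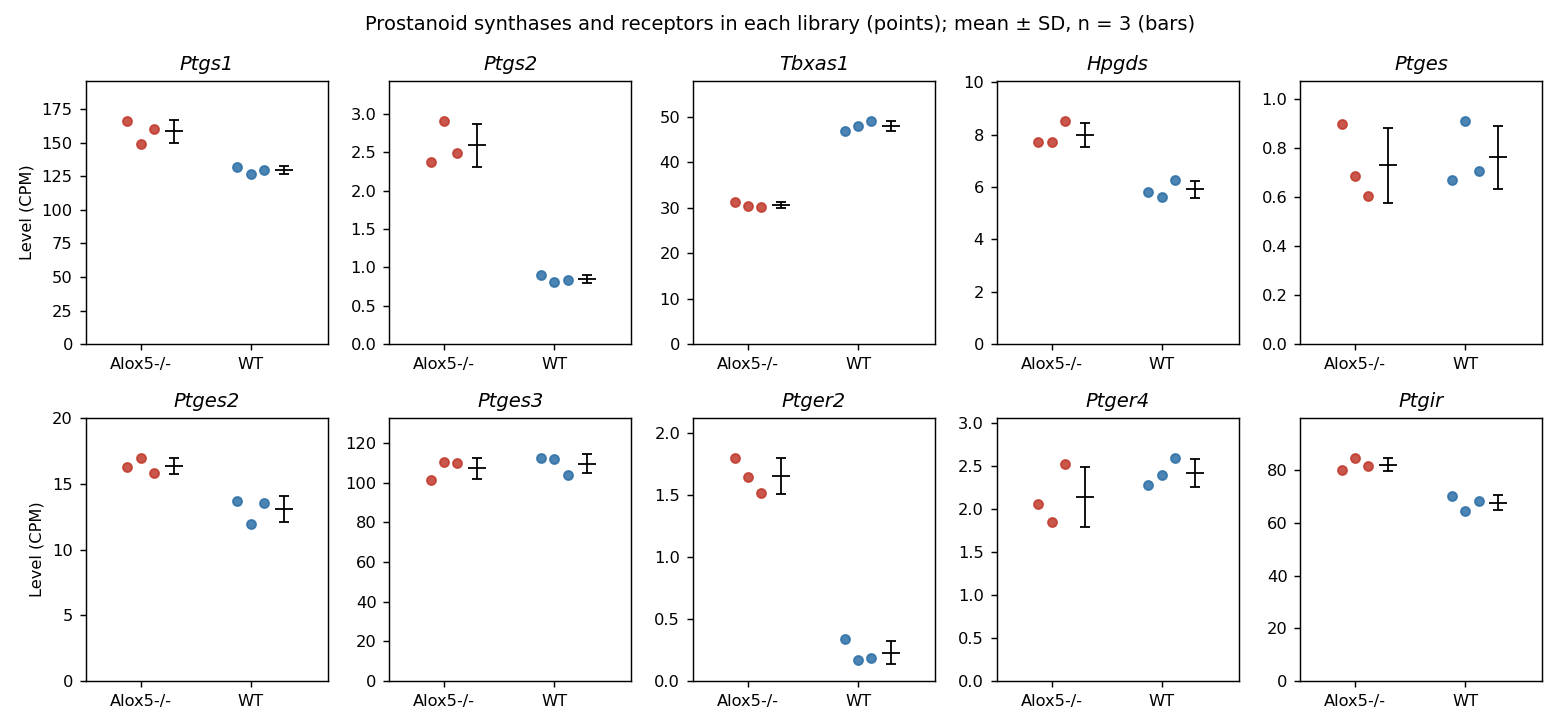
Level in CPM (TMM-scaled, linear axes from 0) of each synthase and receptor gene, with 1 point per library, Alox5-/- left of WT, and the mean ± SD of 3 libraries beside the points. The groups stand apart for 7 genes and overlap for Ptges, Ptges3 and Ptger4, and Tbxas1 is the gene of the 7 whose Alox5-/- libraries lie below WT.

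The DNA around the start sites of 4 of these genes is shown because they carry the contrasts described below: the pair of cyclooxygenases, the receptor with the greatest fold rise among the 10, and the gene that fell. Each window runs 5′ to 3′ on the gene's strand, from 250 bases before the start to 30 bases from it onward, taken from RefSeq on GRCm38.p6, the assembly called mm10. The windows are chr2:36230176-36230455 for Ptgs1, chr1:150099781-150100060 for Ptgs2, chr14:44987861-44988140 for Ptger2 and chr6:38918736-38919015 for Tbxas1, all on the plus strand. The Tbxas1 start of RefSeq lies inside the longer GENCODE gene. Capitals mark matches on either strand to 8 motifs chosen with the results known. They are the core of a cyclic AMP response element, spelled TGACG, the E-box spelled CACGTG, the palindrome bound by C/EBP factors, spelled TTGCGCAA, a site of the kind bound by PU.1 and other ETS factors, spelled GAGGAAG, the site of GATA factors spelled AGATAA, the GC box spelled GGGCGG, the TATA box spelled TATAAA, and an NF-kB consensus.
Ptgs1: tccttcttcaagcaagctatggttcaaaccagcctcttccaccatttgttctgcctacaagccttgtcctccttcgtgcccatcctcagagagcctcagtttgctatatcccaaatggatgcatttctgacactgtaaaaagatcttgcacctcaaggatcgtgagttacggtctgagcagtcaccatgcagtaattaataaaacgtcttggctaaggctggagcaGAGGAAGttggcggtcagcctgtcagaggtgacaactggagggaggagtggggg
Ptgs2: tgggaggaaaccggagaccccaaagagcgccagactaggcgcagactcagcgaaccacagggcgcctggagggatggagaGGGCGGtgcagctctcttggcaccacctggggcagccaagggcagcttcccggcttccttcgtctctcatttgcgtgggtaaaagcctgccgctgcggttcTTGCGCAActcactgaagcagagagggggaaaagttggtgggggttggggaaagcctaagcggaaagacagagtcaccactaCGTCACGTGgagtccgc
Ptger2: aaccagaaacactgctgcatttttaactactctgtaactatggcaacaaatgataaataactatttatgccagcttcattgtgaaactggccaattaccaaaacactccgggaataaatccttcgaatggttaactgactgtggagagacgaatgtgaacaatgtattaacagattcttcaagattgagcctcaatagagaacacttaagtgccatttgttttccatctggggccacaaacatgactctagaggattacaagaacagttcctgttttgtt
Tbxas1: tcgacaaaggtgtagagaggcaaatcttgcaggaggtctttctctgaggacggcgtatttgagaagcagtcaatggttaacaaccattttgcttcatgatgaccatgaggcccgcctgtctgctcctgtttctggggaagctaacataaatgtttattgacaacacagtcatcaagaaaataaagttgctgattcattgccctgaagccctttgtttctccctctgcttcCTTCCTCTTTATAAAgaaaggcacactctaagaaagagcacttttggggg

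The Ptgs2 window held a GC box, and also the C/EBP palindrome, which 0.18% of 32851 RefSeq windows of this length contain. It further held a TGACG core (19.9% of windows) that overlaps an E-box (6.79%) just after the annotated start. Where transcription starts in these cells was not tested. The Ptgs1 window held a PU.1-type match close to the start and no other of these motifs. The Tbxas1 window had a PU.1-type match next to overlapping TATA boxes (13.1% of windows), and none of the motifs was found in the Ptger2 window. PU.1-type matches were found in the windows of Ptgs1, Tbxas1, Hpgds and Ptgir, 4 of 10 genes, against 12.2% of all windows, and GC boxes in 5 of 10 against 34.7%. None of the 10 held AGATAA (10.7% of windows) or the NF-kB consensus (0.149%). A match is a string of letters and not a site shown to be bound.

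Of the cyclooxygenases, which commit arachidonic acid to prostanoids, Ptgs1 was by far the more abundant and rose by a small amount, while Ptgs2 was scarce and rose about 3-fold. Ptgs1 (ENSMUSG00000047250, chr2:36230426-36252272, plus strand), the enzyme that most tissues express without stimulation, stood at 166, 149 and 159.9 CPM in Alox5-/- libraries, against 132, 127 and 129.8 CPM in WT libraries. The lowest Alox5-/- library, replicate 2, was still above the highest WT library, and the rise was 1.22-fold, or 0.29 ± 0.04 (log2 ± SE; adjusted p = 2.12e-05, edgeR). Ptgs2 (ENSMUSG00000032487, chr1:150100031-150108227, plus strand), the form induced by growth factors and inflammation, had 74, 85 and 74 reads in Alox5-/- libraries, against 27, 24 and 32 reads in WT libraries. The CPM values were 2.37, 2.91 and 2.49 for Alox5-/- libraries against 0.904, 0.808 and 0.838 for WT libraries. Every Alox5-/- library held more than the highest WT library, replicate 2 the most, and the rise was 3.04-fold, or 1.60 ± 0.17 (log2 ± SE; adjusted p = 1.54e-06, edgeR).

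Different genes were set side by side per kb of exon. This length covers all annotated exons of a gene, whether or not these cells use them, so orders and ratios between genes are rough. On this scale the cyclooxygenase message was nearly all Ptgs1 in both genotypes. Ptgs2 made up 1.2, 1.63 and 1.3% of the summed level of Ptgs1 and Ptgs2 in Alox5-/- libraries, against 0.577, 0.538 and 0.545% in WT libraries. This share does not depend on library scaling, and the groups did not overlap (two-sided exact permutation test, p = 0.1, the smallest that 3 against 3 allows, and 0.1 after adjustment over the 5 ratios computed). The separation restates the larger rise of Ptgs2 than of Ptgs1 given above, so it is no further evidence.

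Among the terminal synthases, the thromboxane enzyme fell, the prostaglandin D2 enzyme and 1 of 3 prostaglandin E2 enzymes rose, and the other prostaglandin E2 enzymes did not pass the test. Tbxas1 (ENSMUSG00000029925, chr6:38875404-39084585, plus strand), thromboxane synthase, was at 31.3, 30.4 and 30.2 CPM in Alox5-/- libraries, against 46.9, 47.9 and 49.0 CPM in WT libraries. The spread within each genotype was small beside the distance between them, and the level was 1.57-fold lower in Alox5-/- cells, or -0.65 ± 0.04 (log2 ± SE; adjusted p = 1.56e-08, edgeR). Gm42962, a transcript antisense to Tbxas1 with 144 bases of shared exon, went the other way, with 30, 30 and 30 reads in Alox5-/- libraries against 16, 17 and 16 reads in WT libraries (log2 0.99, edgeR adjusted p = 0.00214). The strand setting of the counting is unknown here, so reads of the shared stretch cannot be assigned with certainty.

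Hpgds (ENSMUSG00000029919, chr6:65117293-65144908, minus strand), the hematopoietic prostaglandin D2 synthase, was at 7.73, 7.73 and 8.51 CPM in Alox5-/- libraries, against 5.83, 5.62 and 6.26 CPM in WT libraries. All Alox5-/- values lay above all WT values, a 1.35-fold rise, or 0.43 ± 0.09 (log2 ± SE; adjusted p = 0.000641, edgeR). Tbxas1 and Hpgds lie on the chromosome of Alox5, 77.3 and 51.3 Mb away from it. Set against each other per kb, Hpgds made up 25.9, 26.5 and 28.5% of the sum of Hpgds and Tbxas1 in Alox5-/- libraries, against 15.0, 14.2 and 15.3% in WT libraries. The share was higher in every Alox5-/- library (two-sided exact permutation p = 0.1, the smallest possible here, adjusted 0.1). The ratio of Ptgs1 to Tbxas1 per kb averaged 12.1 ± 0.527 in Alox5-/- cells against 6.33 ± 0.237 in WT cells, again without overlap and with the same p. Each separation follows from genes that already stood apart in opposite directions, so it is no further evidence.

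The 3 genes named as prostaglandin E synthases spanned most of the range of levels. Ptges3 (ENSMUSG00000071072, chr10:128058954-128077272, plus strand), which encodes p23, a co-chaperone of Hsp90 as well as a cytosolic synthase, had the highest level per kb of the 10 genes in both genotypes. It was at 101, 111 and 110.2 CPM in Alox5-/- libraries, against 113, 112 and 104 CPM in WT libraries. These ranges overlapped, with an estimate of -0.03 ± 0.04 (log2 ± SE; adjusted p = 0.59, edgeR). Copies of its transcript lie in 2 other annotated genes, the longest over 495 bases at 94.3% identity, so that its count is uncertain. Ptges2 (ENSMUSG00000026820, chr2:32395896-32405772, plus strand), a membrane-associated form, was at 16.3, 17.0 and 15.8 CPM in Alox5-/- libraries, against 13.7, 12 and 13.6 CPM in WT libraries. It rose 1.25-fold without overlap, or 0.32 ± 0.07 (log2 ± SE; adjusted p = 0.00118, edgeR). Ptges (ENSMUSG00000050737, chr2:30889471-30929863, minus strand), the microsomal form that is induced together with Ptgs2 in inflammation, was scarce. It had 28, 20 and 18 reads in Alox5-/- libraries, against 20, 27 and 27 reads in WT libraries, and the groups overlapped, with an estimate of -0.05 ± 0.24 (log2 ± SE; adjusted p = 0.879, edgeR). A moderate change of Ptges in either direction was not detectable at this depth.

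Of the receptors, all of which couple to Gs and raise cyclic AMP, Ptger2 was clearly counted in Alox5-/- cells and barely in WT cells, Ptgir rose slightly, and Ptger4 was not called. Ptger2 (ENSMUSG00000037759, chr14:44988195-45003820, plus strand), the EP2 receptor of prostaglandin E2, had 56, 48 and 45 reads in Alox5-/- libraries, against 10, 5 and 7 reads in WT libraries. The CPM values were 1.80, 1.64 and 1.51 for Alox5-/- libraries against 0.335, 0.168 and 0.183 for WT libraries, and the groups stood far apart. The rise was 7.23-fold, or 2.85 ± 0.27 (log2 ± SE; adjusted p = 4.13e-07, edgeR). This p belongs to a gene that entered the test through its Alox5-/- libraries, and the log2 estimate with no filter was 2.86. Gm17173, antisense to Ptger2 with 246 bases of shared exon, had 1 read over all 6 libraries. Ptger4 (ENSMUSG00000039942, chr15:5206661-5244187, minus strand), the EP4 receptor, was at 2.05, 1.85 and 2.52 CPM in Alox5-/- libraries, against 2.28, 2.39 and 2.59 CPM in WT libraries. These overlapped, with an estimate of -0.18 ± 0.15 (log2 ± SE; adjusted p = 0.317, edgeR). Its exons share 82 bases with Ttc33 and 1015 bases with the pseudogene Gm15937, both on the other strand. A copy of its transcript in another annotated gene runs over 874 bases at 100% identity. The count of Ptger4 is therefore uncertain.

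The make-up of EP2 and EP4 message did not overlap between genotypes. Per kb, Ptger2 was 52.8, 53.2 and 43.4% of the sum of Ptger2 and Ptger4 in Alox5-/- libraries, against 15.8, 8.27 and 8.30% in WT libraries. The lowest Alox5-/- share was well above the highest WT share, which rests on few Ptger2 reads in WT libraries, where Ptger2 did not reach the filter. The separation restates the rise of Ptger2 and is no further evidence, and the count of Ptger4 is uncertain, as given above. Ptgir (ENSMUSG00000043017, chr7:16906490-16910905, plus strand), the prostacyclin receptor, was the most abundant receptor of the 3. It stood at 80.1, 84.7 and 81.5 CPM in Alox5-/- libraries, against 70.1, 64.5 and 68.2 CPM in WT libraries, a 1.21-fold rise without overlap, or 0.28 ± 0.04 (log2 ± SE; adjusted p = 3.45e-05, edgeR). Ptgis, the synthase that makes prostacyclin, had 1, 1 and 1 reads in Alox5-/- libraries, against 1, 0 and 2 reads in WT libraries, at or under the 3 counts that 0 allows.

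**Figure D2:**
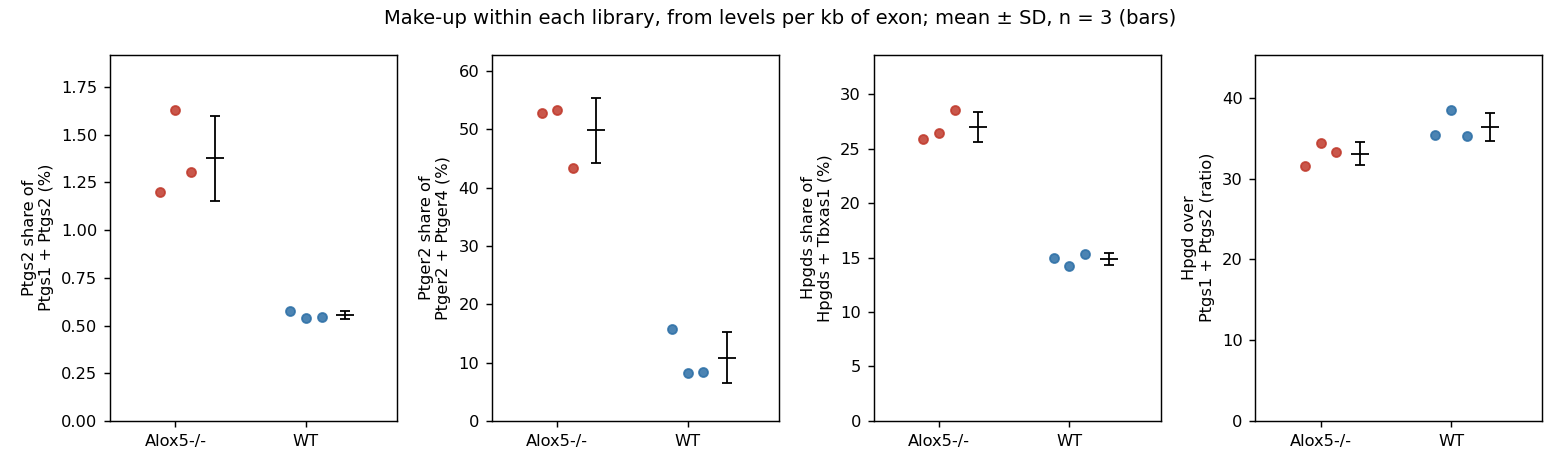
Shares and a ratio of levels per kb of exon computed within each library, with Alox5-/- left of WT, 1 point per library and the mean ± SD of 3 libraries beside the points, on linear axes from 0. Ptger2 averaged 49.8% of the sum of Ptger2 and Ptger4 in Alox5-/- libraries against 10.8% in WT libraries, and Hpgds averaged 27.0% of the sum of Hpgds and Tbxas1 in Alox5-/- libraries against 14.8% in WT libraries.

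Ordered by level per kb of exon, Ptges3, Ptgs1 and Ptgir led in both genotypes. Ptges3 was at 48.4 ± 2.40 CPM per kb in Alox5-/- cells against 49.4 ± 2.19 in WT cells, Ptgs1 at 40.8 ± 2.21 in Alox5-/- against 33.4 ± 0.715 in WT, and Ptgir at 24.6 ± 0.705 in Alox5-/- against 20.3 ± 0.859 in WT. The libraries of these neighbours in the order did not overlap. Tbxas1 and Ptges2 followed, and they overlapped in Alox5-/- cells (3.37 ± 0.0663 and 3.24 ± 0.118 CPM per kb) but not in WT cells (5.27 ± 0.118 and 2.59 ± 0.191 CPM per kb). Hpgds came next, at 1.24 ± 0.0700 CPM per kb in Alox5-/- cells against 0.919 ± 0.0508 in WT cells. Below it the order of means differed between genotypes. In Alox5-/- cells it ran Ptgs2, Ptger4, Ptger2 and Ptges, with the ranges of Ptger4 and Ptger2 overlapping. In WT cells it ran Ptger4, Ptges, Ptgs2 and Ptger2, with Ptges and Ptgs2 overlapping. Ptger2 exceeded 8.83% of the 13664 tested genes of known length in Alox5-/- cells and 0.564% of them in WT cells. It was among these genes through its Alox5-/- libraries alone, so its place near the bottom in WT cells follows from the filter.

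**Figure D3:**
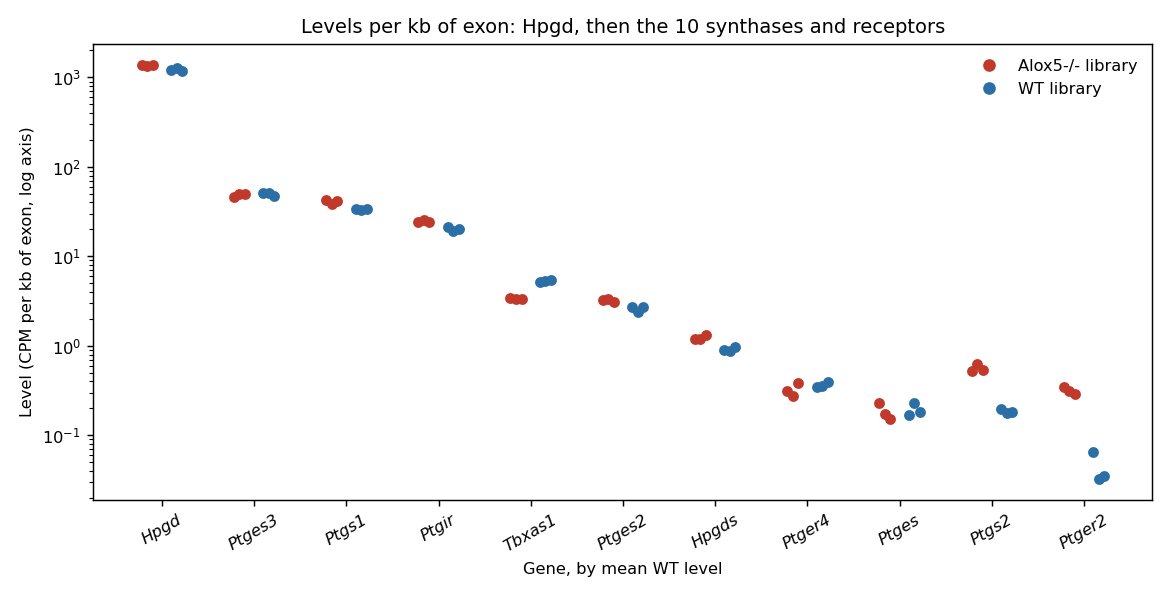
Level per kb of exon (CPM per kb, log axis) of Hpgd and the 10 synthases and receptors, with each point a library and Alox5-/- left of WT within a gene. Hpgd, at 1364 CPM per kb in Alox5-/- cells against 1219 in WT cells on average, lies above every synthase and receptor shown.

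Upstream stand the enzymes that release arachidonic acid or return it to membranes. Of 24 such genes 19 were tested, of which 4 rose, 6 fell and 9 stayed uncalled, a share of calls near the 53.8% of all tested genes, and their median log2 change was -0.02. Pla2g4a, the cytosolic phospholipase that feeds the cyclooxygenases, was at 133, 141 and 146 CPM in Alox5-/- libraries, against 101, 106 and 101 CPM in WT libraries. All Alox5-/- values were above WT, a difference of 0.44 ± 0.04 (log2 ± SE; adjusted p = 2.35e-07, edgeR). Pla2g12a, a secreted phospholipase, rose by 0.82 on the log2 scale (34.8 ± 1.21 CPM in Alox5-/- cells against 19.7 ± 0.448 CPM in WT cells). On the return path, Lpcat2, which makes platelet-activating factor and reacylates lysophospholipids, was 4.34-fold lower (1.65 ± 0.262 CPM in Alox5-/- cells against 7.17 ± 0.404 CPM in WT cells). Lpcat1, a related acyltransferase, fell by 0.53 on the log2 scale.

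The other synthases and the breakdown enzymes numbered 12, of which 10 were tested, 5 rose, 2 fell and 3 stayed uncalled (median log2 change 0.17). Over all tested genes 53.8% were called. Ptgds, the lipocalin-type prostaglandin D2 synthase, was at 5.07, 5.37 and 5.68 CPM in Alox5-/- libraries, against 1.88, 1.95 and 1.86 CPM in WT libraries, a 2.83-fold rise without overlap. Ptgds and Hpgds, the genes of both kinds of prostaglandin D2 synthase, were therefore called higher. Cbr2, a carbonyl reductase, rose by 1.11 and Fam213b, a prostaglandin F synthase, by 0.68 on the log2 scale. Hpgd, the dehydrogenase that inactivates prostaglandins, was at 2297, 2257 and 2335 CPM in Alox5-/- libraries, against 2040.2, 2120.1 and 1995 CPM in WT libraries. By level per kb it ranked 10 among 13664 tested genes in Alox5-/- cells and 12 in WT cells, and it rose 1.12-fold, or 0.16 ± 0.03 (log2 ± SE; adjusted p = 0.000637, edgeR). Its level per kb was 31.6, 34.4 and 33.3 times the sum of Ptgs1 and Ptgs2 in Alox5-/- libraries, against 35.4, 38.4 and 35.3 times in WT libraries. This ratio was lower in every Alox5-/- library (two-sided exact permutation p = 0.1, adjusted 0.1). It restates rises already given, smaller for Hpgd than for the cyclooxygenases, and is no further evidence.

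Other receptors and carriers of prostanoids were mostly below the filter, which 4 of 11 passed, with 1 higher, 2 lower and 1 uncalled (median log2 change -4.25e-04). The share called over all tested genes was 53.8%. Tbxa2r, the thromboxane receptor, had 0, 3 and 0 reads in Alox5-/- libraries, against 1, 2 and 0 reads in WT libraries. Slco2a1, the uptake carrier of prostaglandins, had 0, 0 and 0 reads in Alox5-/- libraries, against 0, 0 and 2 reads in WT libraries. Both were at or under the level that 0 counts allow. Slco3a1, another organic anion carrier able to move prostaglandins, was 5.46-fold lower, at 1.23 ± 0.133 CPM in Alox5-/- cells against 6.76 ± 0.412 CPM in WT cells, or -2.45 ± 0.13 (log2 ± SE; adjusted p = 8.01e-10, edgeR). The exporter Abcc4 fell by 0.16 and the exporter Abcc1 rose by 0.16 on the log2 scale.

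**Figure D4:**
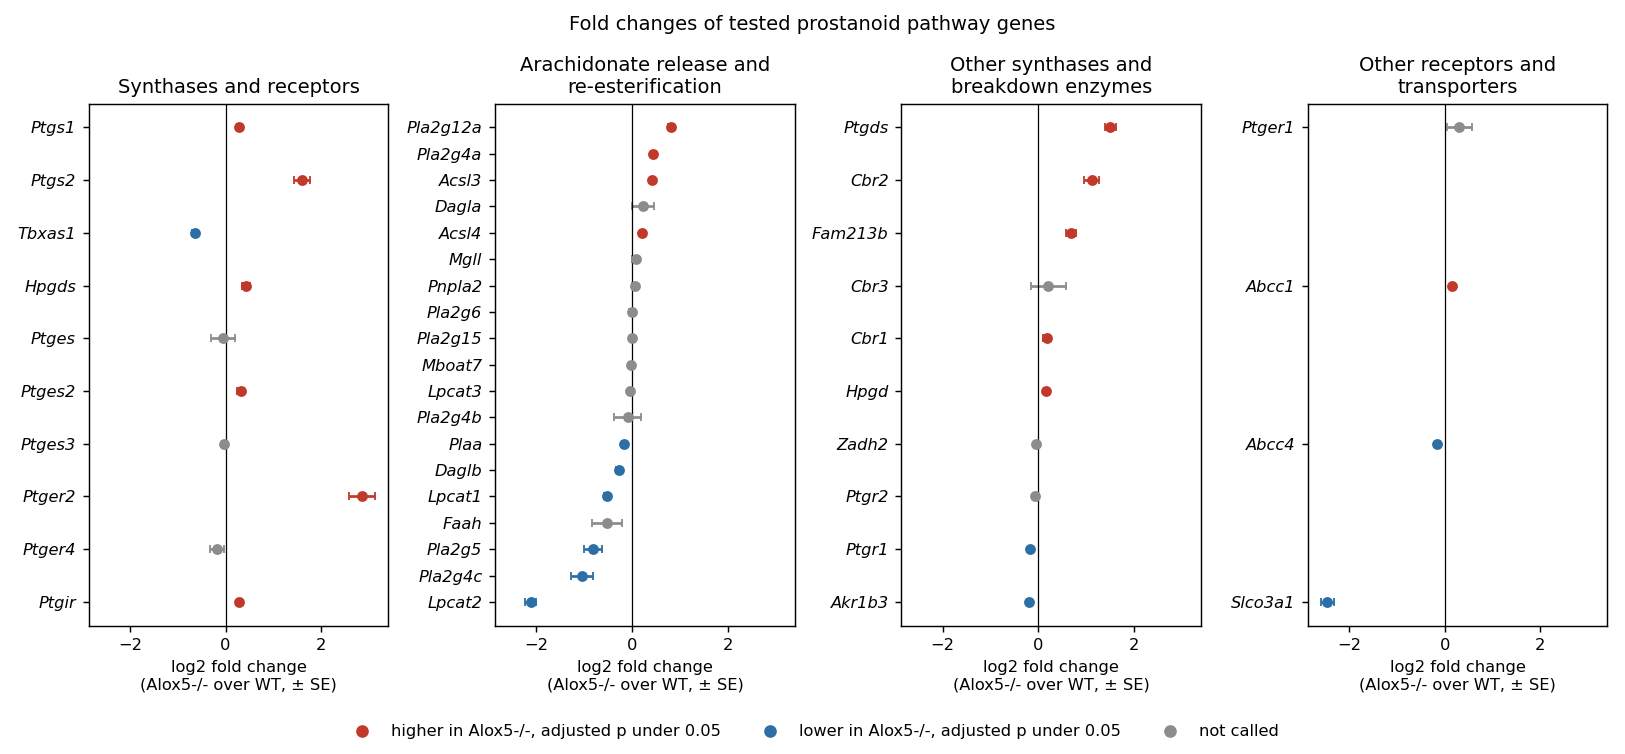
Log2 fold change of Alox5-/- over WT with its SE for the 10 synthases and receptors and for tested genes of 3 neighbouring lists, red where called higher, blue where called lower and grey where not called. Ptger2 (2.85) is the highest of the 10 and Tbxas1 (-0.65) the lowest, while Lpcat2 (-2.12) and Slco3a1 (-2.45) lie lower still.

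Downstream of the receptors lies the cyclic AMP relay. Of its 32 genes 30 were tested, of which 8 rose, 8 fell and 14 stayed uncalled (median log2 change -0.02), again near the 53.8% called over all tested genes. Of the phosphodiesterases, which degrade cyclic AMP, Pde4b, Pde7a and Pde4d rose by 1.22, 0.79 and 0.58 on the log2 scale. Pde3b and Pde4a fell by 0.57 and 0.29, Pde3b to 104 ± 4.87 CPM in Alox5-/- cells, against 155 ± 7.16 CPM in WT cells, and Pde8a was not called. Prkar2b, a regulatory subunit of protein kinase A, rose to 57.7 ± 1.99 CPM in Alox5-/- cells, against 33.9 ± 2.45 CPM in WT cells, and Akap13, an anchoring protein of the kinase, fell by 0.46. Of 21 early genes known to respond to cyclic AMP, among other signals, 17 were tested, of which 8 rose, 5 fell and 4 stayed uncalled (median 0.21). This count too stands beside 53.8% called over all tested genes, and Crem, Pde4b and Pde4d belong to both lists. Egr1, an early transcription factor, was at 2.76, 5.68 and 3.80 CPM in Alox5-/- libraries, against 0.670, 0.774 and 0.760 CPM in WT libraries. The groups stood apart, and Alox5-/- replicate 2, the library farthest from its group, was the highest. Dusp1, a phosphatase of MAP kinases, rose by 0.78 on the log2 scale and Cdkn1a, a cell cycle inhibitor, fell by 0.76. Without Alox5-/- replicate 2 the early genes numbered 7 higher and 6 lower.

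Among 28 inducers and regulators of prostanoid enzymes, 23 were tested, of which 8 rose, 6 fell and 9 stayed uncalled (median log2 change 0.04), beside 53.8% called over all tested genes. Egr1, described among the early genes above, is counted here too, among those that rose. Zfp36l1, an RNA-binding protein that destabilises AU-rich messages, rose by 1.12 and Tsc22d3, a glucocorticoid-induced gene, by 0.66 on the log2 scale. Anxa1, a glucocorticoid-induced annexin, was lower, at 20.3 ± 0.380 CPM in Alox5-/- cells against 31.1 ± 1.23 CPM in WT cells. Hsp90aa1, a form of the chaperone that p23 assists, fell by 0.46 on the log2 scale. Il1b, an inducer of Ptgs2 chosen after its values were seen, did not pass the filter, with 5, 2 and 9 reads in Alox5-/- libraries against 3, 1 and 6 reads in WT libraries.

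Markers of cell types that are known to use these genes moved in part with the genotype. The counts of calls below stand beside 53.8% called over all tested genes, 26.8% higher and 27% lower. For mast cells and basophils, which make prostaglandin D2 through Hpgds, 7 of 13 markers had no read in any library, among them the mast cell proteases Mcpt4 and Tpsb2, while 1 rose and 3 fell. Their sum was 247 to 256 CPM in Alox5-/- libraries against 336 to 348 CPM in WT libraries, Kit giving the most. Hdc, which makes histamine, was at 35.1 ± 2.51 CPM in Alox5-/- cells against 96.0 ± 4.62 CPM in WT cells, a greater drop in CPM than that of Kit. Cpa3, the mast cell carboxypeptidase, was the third to fall, by 2.21 on the log2 scale, while Ms4a2, a chain of the IgE receptor, rose by 0.37 and Gata2 and Mcpt8 were not called. For megakaryocytes and platelets, a source of thromboxane and of Ptgs1, 2 of 13 markers had no read in any library, 1 rose and 1 fell. Their sum was 49.8 to 51.4 CPM in Alox5-/- libraries against 31.7 to 34.0 CPM in WT libraries, Itgb3 giving the most. Itgb3 rose by 0.87 on the log2 scale, Itga2b fell by 1.11, and Gp9 and Vwf were not called. Pf4, which defines platelets, had 2, 0 and 1 reads in Alox5-/- libraries against 1, 0 and 2 reads in WT libraries. For macrophages and monocytes, 2 of 13 markers had no read, 2 rose and 2 fell, with sums of 1798 to 1905 CPM in Alox5-/- libraries against 1911 to 1944 CPM in WT libraries, Ly6c2 giving the most. Of 14 neutrophil and granule markers 13 were tested, of which 3 rose and 8 fell, with sums of 3823 to 3954 CPM in Alox5-/- libraries against 3492 to 3797 CPM in WT libraries, Ctsg giving the most. Ctsg, Lcn2 and Csf3r rose by 0.28, 1.03 and 0.43 on the log2 scale. Mpo was at 65.6 ± 7.76 CPM in Alox5-/- cells against 197 ± 13.4 CPM in WT cells, and S100a8, S100a9 and Ngp were 3.15-fold, 2.26-fold and 2.69-fold lower in Alox5-/- cells. The part of such cells, and of the shift in these markers, in the changes of the 10 genes was not tested.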

How the data were processed

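Poly-A RNA of 6 libraries was measured. The authors deposited raw read counts per gene, made with HTSeq on mm10, with DESeq2 also named, per the submitters' processing notes, and with aligner, annotation release and strand setting not given in the sources used here. Reads aligned to more than 1 place (24.4 to 24.8% of reads) were not counted. The counter's summary rows were left out, and gene rows held 60.0 to 60.9% of reads.

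Counts were analysed in R 4.3.3 with edgeR 4.0.16: TMM scaling, the default filterByExpr filter with a minimum count of 10, a quasi-likelihood F-test of Alox5-/- over WT over all 13705 genes passing, and Benjamini-Hochberg adjustment with a threshold of 0.05, after a test on simulated data. Limits from counts cover counting error alone, as amplified reads are not independent molecules. Libraries of 1 genotype differed by more than sampling noise (chi-square over its degrees of freedom 2.18 to 10.2). Positions and exon lengths came from a GENCODE annotation of mm10, and a level per kb is CPM divided by the length of all exons. A listed symbol without a row of its own (Ptgr3) was dropped. It is a newer name of Zadh2, which was in the same list, was tested and was not called.

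The 10 genes and all lists were chosen with earlier results of these data known. Named from each neighbouring list were the 4 called genes with the smallest p. Pla2g4a, Hpgd, Ptgis, Tbxa2r, Slco2a1, Abcc4, Prkar2b and Pde4b were named whatever their values. Of the mast cell, megakaryocyte, macrophage and neutrophil markers, the most abundant gene of each list was named, with some defining genes near 0. The other phosphodiesterases and markers named, and the genes overlapping the 10, were added after their values were seen. Alternatives were limma-voom (limma 3.58.1), DESeq2 1.42.0, other scalings and filters, a robust fit, a replicate block, a 2-fold minimum and each library left out. List counts without Alox5-/- replicate 2 were added after seeing the data.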

Additional observations from a re-analysis of the deposited data

How the results depend on the processing

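The 6 rises and the fall of Tbxas1 were called by edgeR with DESeq2 size factors, upper-quartile scaling, no filter and the robust fit, by DESeq2, by limma-voom, and with each library left out in turn (7 calls each). Among these rises, Ptger2 passed the default filter through its Alox5-/- libraries alone, so its calls under that filter remain a description. A minimum of 5 CPM in 3 libraries left 6 of the 10 genes, of which 4 were higher and 1 lower. It removed Ptgs2, Ptges, Ptger2 and Ptger4, and so the 2 genes called with a change of at least 2-fold, Ptgs2 and Ptger2. With a 2-fold minimum 2 of the 10 were called, and 626 of all tested genes against 7379 without it. Over all genes the count was 6219 to 7622 under the other tools, scalings and filters, and 6583 to 7251 with a library left out. With a library left out, log2 fold changes were 1.52 to 1.66 for Ptgs2, 2.69 to 3.20 for Ptger2 and -0.66 to -0.63 for Tbxas1. The uncalled values of Ptges (-0.23 to 0.083) and Ptges3 (-0.068 to 0.012) changed sign. Ptges was 0.0020 without Alox5-/- replicate 2, 0.070 without Alox5-/- replicate 3 and 0.083 without WT replicate 2, and Ptges3 was 0.012 without Alox5-/- replicate 1; the cause was not tested. Same-numbered libraries did not deviate together (correlations -0.023, -0.077 and 0.022), so the numbers are not taken as pairs. With the replicate block 7029 genes were called, and 7 of the 10. Read depth limits Ptges, Ptger2, Ptger4 and Ptgs2, with 66, 149, 193 and 233 reads over the Alox5-/- libraries against 74, 22, 238 and 83 over the WT libraries.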
